A study of Mus musculus with 2 samples.

Results

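The kinesin superfamily genes described here are the 43 genes whose symbol in the authors' deposited table is Kif or Kifc followed by a digit, out of 24288 symbols in that table. They were read by 68 probes. Probes whose spots were flagged well above background on 4 or more of the 8 arrays were kept, which left 52 probes for 36 of the 43 genes. By known role, 14 of the 43 are mitotic kinesins, 15 move cargo (transport kinesins), 12 have other roles and 2 are pseudogenes. All 15 transport kinesins had a kept probe, against 10 of the 14 mitotic ones and 10 of the 12 others. The mitotic genes with no kept probe were Kif11, Kif15, Kif18b and Kif2b, the others were Kif7 and Kif27, and of the pseudogenes Kif4b had none. Cenpe, a mitotic kinesin with another kind of name, is not among the 43 and is given below with the partner proteins.

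Kinesins are motors that use ATP to move along microtubules or to shorten them. Mitotic kinesins build the bipolar spindle, move chromosomes and organise the central spindle and the midbody through which daughter cells separate, and most are made mainly in G2 and mitosis. Transport kinesins carry vesicles, mitochondria and other cargo in cells that need not divide. In beta cells of the pancreatic islet, conventional kinesin is known to carry insulin granules toward the cell surface.

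The groups were islets isolated from C57BL/6J mice 3 days after pancreatectomy, in which 60% of the pancreas was removed, and islets from C57BL/6J mice 3 days after a sham operation. All mice were 8 weeks old, and both groups had surgery and islet isolation. Total RNA was labelled with Cy3 and read on 4 one-colour arrays per group. Whether those 4 arrays stand for different mice or islet preparations is not given in the labels, and p-values here measure the spread between arrays, which may be technical. The sham sample's description lists 1 slide position (row 1, column 2) a second time and leaves out row 2, column 2, while the 4 files recorded for that sample include row 2, column 2, used here as sham array 4.

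Islet identity was checked with 11 islet marker genes, Ins1, Ins2, Gcg and Sst among them, and all 11 were well above background on all 8 arrays. Processed signals had a 75th percentile of 280 to 640 on pancreatectomy arrays and 178 to 655 on sham arrays. Of all probes, 59.1% to 71.4% were well above background on pancreatectomy arrays and 48.1% to 70.9% on sham arrays, with sham array 3 the lowest. Acinar transcripts were also present, with 8 of 9 acinar markers well above background on all 8 arrays. The summed signal of the 9 was 299241 to 870343 on pancreatectomy arrays and 214430 to 865829 on sham arrays. Some arrays carried transcripts of other tissues as well. Alb, the liver's serum albumin, had a normalized log2 signal of 14.89 on pancreatectomy array 1, 12.62 on pancreatectomy array 4 and 13.79 on sham array 4, against 2.11 to 4.90 on the other 5 arrays. Ms4a1, a B-cell surface gene, had 11.57 on pancreatectomy array 3, against 1.21 to 3.01 on the other 7. Results are therefore also given without these 4 arrays. The summed signal of 9 fibroblast markers was 122387 and 54091 on pancreatectomy arrays 1 and 3, against 11820 and 11968 on pancreatectomy arrays 2 and 4 and 7908 to 14055 on sham arrays. On the slide, pancreatectomy arrays had columns 3 and 4 and sham arrays columns 1 and 2. An effect of column cannot be told apart from one of surgery, while both groups were present in slide row 1 and in row 2.

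All the kinesins that passed the test were mitotic. Of the 10 mitotic kinesins measured, 4 rose after pancreatectomy and none fell: Kifc1, Kif20b, Kif20a and Kif23, by 2.49 to 3.64 on the log2 scale. Over all 30864 features tested, 194 (0.629%) passed the same threshold, an adjusted p under 0.05 in limma, with 168 higher (0.544%) and 26 lower (0.0842%). Median scaling in place of the 75th percentile changed that split to 130 higher and 48 lower, and no scaling gave 18 higher and none lower. The median change of the 10 mitotic kinesins was 2.30, against -0.04 over all features, and 9 of the 10 changes were positive. At an unadjusted p under 0.05, 8 of the 10 were higher, against 4.22% of all features. In 7 of the 10, every pancreatectomy array was above every sham array, which held for 2.99% of all features (8.28% in either direction). Several of the 10 met the filter mainly through pancreatectomy arrays. Kif23 and Kif4 were well above background on 4 pancreatectomy and 2 sham arrays, and Kif2c on 3 and 1. Part of these counts therefore compares signal with background. With all 8 arrays required to be well above background, 2 mitotic kinesins were left, with a median change of 1.76. None of the 15 transport kinesins passed, and their median change was -0.25. The RNA came from whole islets, so a larger share of cells that express a gene and more of its RNA per cell cannot be told apart.

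**Figure D1:**
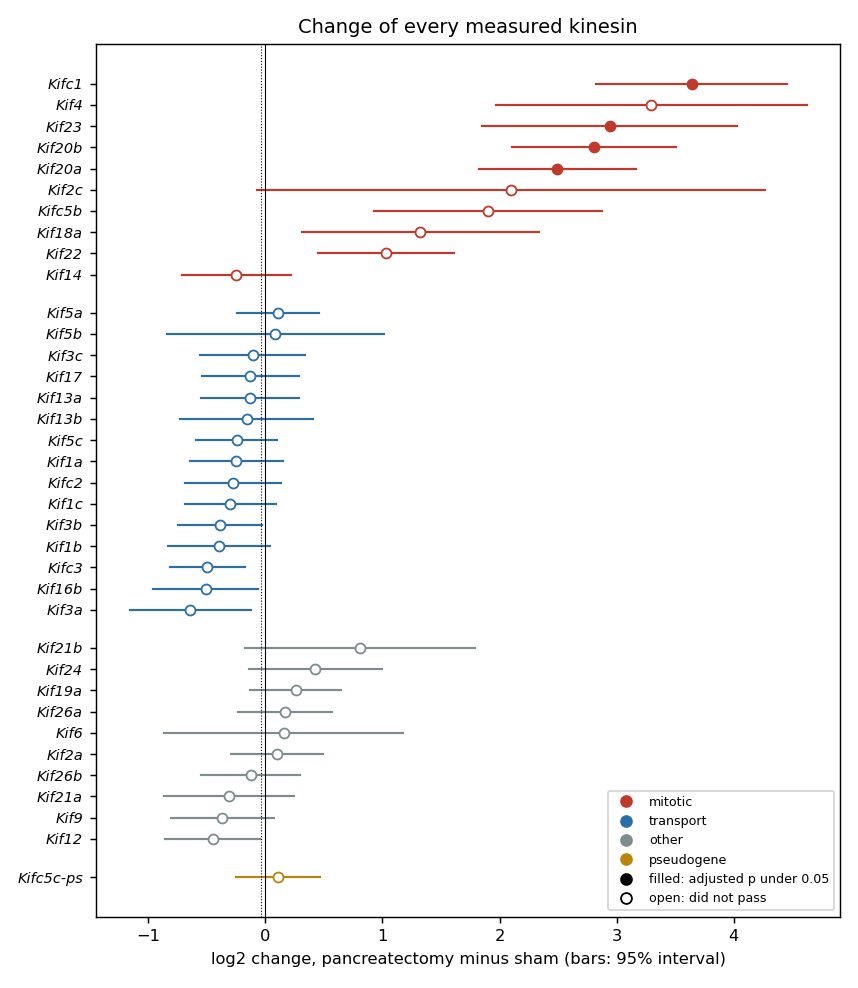
Log2 change (pancreatectomy minus sham, x axis) of the 36 kinesin genes with a kept probe, by role. Points are limma estimates from 4 arrays per group, bars are 95% intervals, filled points passed an adjusted p of 0.05, the solid line is 0 and the dotted line the median of all features (-0.04). The 4 filled points are all mitotic, and 9 of the 10 mitotic kinesins lie to the right of every transport kinesin, Kif14 being the exception.

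Kifc1 had the largest change. It is a minus-end-directed motor that bundles spindle microtubules and focuses the spindle poles. Its probe, at chr17:34018375-34018434 on the mm9 build used by the array design, gave a normalized log2 signal of 9.45, 8.42, 8.00 and 8.86 on pancreatectomy arrays 1 to 4, against 5.70, 5.02, 4.37 and 5.09 on sham arrays 1 to 4. All 4 pancreatectomy arrays were above all 4 sham arrays by a wide margin, and 3 of the 4 sham arrays were well above background. The change was 3.64 ± 0.36 (SE), or 12.48-fold (adjusted p = 0.0073). Within slide row 1 the change was 3.58 and within row 2 it was 3.71.

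The cytokinesis motors of the kinesin-6 family, Kif20a, Kif20b and Kif23, all passed. Kif20b, which acts at the midbody in the last step of division, gave 9.06, 7.67, 7.76 and 8.34 on pancreatectomy arrays, against 5.65, 5.38, 5.06 and 5.51 on sham arrays. All pancreatectomy values were above all sham values, and the change was 2.81 ± 0.31 (SE, adjusted p = 0.0081), with 2.85 and 2.77 within slide rows 1 and 2. Kif20a brings the chromosomal passenger complex to the central spindle. It gave 9.43, 7.97, 8.24 and 8.21 on pancreatectomy arrays, against 5.96, 5.94, 6.01 and 5.97 on sham arrays. The sham arrays lay within 0.07 of each other, all well above background, and the pancreatectomy arrays were spread more widely. The change was 2.49 ± 0.30 (SE, adjusted p = 0.0094), with 2.75 and 2.24 within the rows.

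Kif23 joins Racgap1 to form centralspindlin, the bundler of central spindle microtubules. Of its probes, one was well above background on no array and was not kept. The kept Kif23 probe gave 7.53, 4.95, 6.25 and 6.00 on pancreatectomy arrays, against 3.63, 3.48, 3.02 and 2.83 on sham arrays. Only 2 of those sham arrays were well above background. The groups did not overlap, with pancreatectomy array 2 the closest to sham. The change was 2.94 ± 0.48 (SE, adjusted p = 0.0371), with 2.68 and 3.20 within the rows. With slide row as a block the same change had an adjusted p of 0.0654 and no longer passed, while Kifc1, Kif20b and Kif20a still did.

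**Figure D2:**
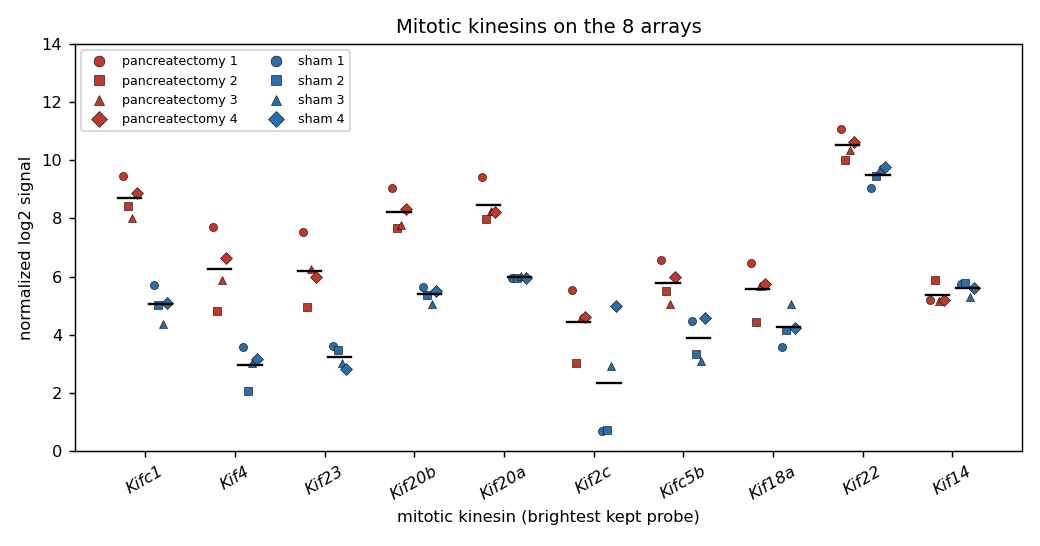
Normalized log2 signal (y axis) of the 10 measured mitotic kinesins on 4 pancreatectomy arrays (red, left in each pair) and 4 sham arrays (blue, right in each pair), with group means as bars. Pancreatectomy array 1 (red circles) is the highest pancreatectomy point in 9 of the 10 genes, and the groups do not overlap in 7.

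Other spindle motors were higher without passing. Kif4, a chromosome-bound motor that limits the length of central spindle microtubules, gave 7.71, 4.81, 5.88 and 6.65 on pancreatectomy arrays, against 3.59, 2.06, 3.03 and 3.17 on sham arrays. The groups did not overlap, but only 2 sham arrays were well above background, and the change of 3.30 ± 0.58 (SE) had an adjusted p of 0.0529. Without pancreatectomy array 2 it was 3.78 with an adjusted p of 0.0218, while the other 7 fits with 1 array left out gave 2.81 to 3.51 with adjusted p of 0.0826 to 0.173. Kifc5b is a near copy of Kifc1 in the mouse genome. It gave 6.57, 5.52, 5.06 and 5.98 on pancreatectomy arrays, against 4.49, 3.34, 3.1001 and 4.59 on sham arrays. Even the lowest pancreatectomy array was above the highest sham array, and the change was 1.90 ± 0.43 (SE, adjusted p = 0.140). Whether its probe also binds Kifc1 RNA was not tested, so the signals of Kifc1 and Kifc5b are not separate evidence.

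Kif2c shortens microtubules at centromeres and corrects faulty attachments. It gave 5.54, 3.03, 4.59 and 4.60 on pancreatectomy arrays, against 0.70, 0.73, 2.94 and 4.99 on sham arrays. The groups overlapped because sham array 4, the only sham array well above background, was higher than 3 of the 4 pancreatectomy arrays. The change was 2.10 ± 0.96 (SE, adjusted p = 0.493). Another Kif2c probe, which was not kept, read 0.95 on sham array 4. That probe was well above background on 2 pancreatectomy arrays and on no sham array. Its groups also overlapped, with pancreatectomy array 2 at 2.12 and sham array 3 at 3.90. Kif18a, which damps the movement of chromosomes on the spindle, gave 6.47, 4.43, 5.68 and 5.73 on pancreatectomy arrays, against 3.58, 4.15, 5.06 and 4.23 on sham arrays. Here only sham array 3 was above pancreatectomy array 2. The Kif18a value on sham array 3 lay under the lowest signal well above background there (5.19). The change was 1.32 ± 0.45 (SE, adjusted p = 0.359).

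The last of the mitotic genes with kept probes were Kif22 and Kif14. Kif22, a chromosome-arm motor that pushes chromosomes away from the poles, gave 11.09, 10.03, 10.34 and 10.62 on pancreatectomy arrays, against 9.04, 9.46, 9.69 and 9.76 on sham arrays. The groups did not overlap, and the change was 1.03 ± 0.26 (SE, adjusted p = 0.189). Kif14, which recruits citron kinase to the midbody, was the only mitotic kinesin with a negative value, -0.25 ± 0.20 (SE, adjusted p = 0.6999). It gave 5.19, 5.88, 5.17 and 5.20 on pancreatectomy arrays, against 5.73, 5.77, 5.31 and 5.62 on sham arrays, and the groups overlapped.

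Of the mitotic genes with no kept probe, 2 were well above background on 3 of 4 pancreatectomy arrays and on no sham array. Kif11 (Eg5), the motor that drives spindle poles apart, gave 6.83, 4.23, 5.28 and 5.49 on pancreatectomy arrays, against 2.25, 1.78, 2.93 and 1.52 on sham arrays. None of the sham values was well above background. For a gene at background in a whole group, only a bound can be given: the pancreatectomy mean over the mean of, for each sham array, whichever is higher of the probe's own signal there and the faintest signal flagged well above background on that array. On this measure, which is approximate, Kif11 was at least 4.13-fold higher after pancreatectomy. All 4 Kif11 values on pancreatectomy arrays lay above the faintest flagged signal there, though only 3 were flagged. Unflagged values can thus exceed that level. In a fit with no filter on dim probes its adjusted p was 0.0948. Kif18b, which with Kif2c trims astral microtubules, was at least 2.60-fold higher by the same approximate bound (adjusted p = 0.554 in the same fit). It gave 6.87, 2.62, 4.97 and 4.70 on pancreatectomy arrays, against 1.33, 0.71, 3.74 and 1.91 on sham arrays, with pancreatectomy array 2 below sham array 3. Kif15, which helps Kif11 hold the poles apart, was well above background on 1 pancreatectomy array and on no sham array. Kif2b was well above background on no array of either group.

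Most mitotic kinesins ranked the pancreatectomy arrays in a similar order. Taken as the mean difference from the sham mean over the 10 genes, their log2 level was 2.99, 1.45, 1.88 and 2.20 on pancreatectomy arrays 1 to 4, against -0.01, -0.28, -0.06 and 0.36 on sham arrays 1 to 4. Array 1 was the highest pancreatectomy array in 9 of the 10 genes and array 2 the lowest in 7. A list of 8 cycling-cell markers, Mki67 and Top2a among them, had the same order, with 3.61, 2.22, 2.57 and 3.01 on pancreatectomy arrays, against 0.17, -0.33, -0.06 and 0.23 on sham arrays. Of these 8 markers 6 rose (0.544% of all features did), with a median change of 3.52. The 75th percentile of each array, used for scaling, was 640, 280, 525 and 376 on pancreatectomy arrays 1 to 4, so array 1 was also the brightest of these and array 2 the dimmest. Of 13 lists of cell type markers, only the erythroid one had summed signals that did not overlap, 6129 to 10365 on pancreatectomy arrays and 3646 to 5608 on sham arrays. The erythroid sum was highest on pancreatectomy array 2, where 7 of the 10 mitotic kinesins were lowest among pancreatectomy arrays. The parts of array brightness and of erythroid cells in these results were not tested.

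**Figure D3:**
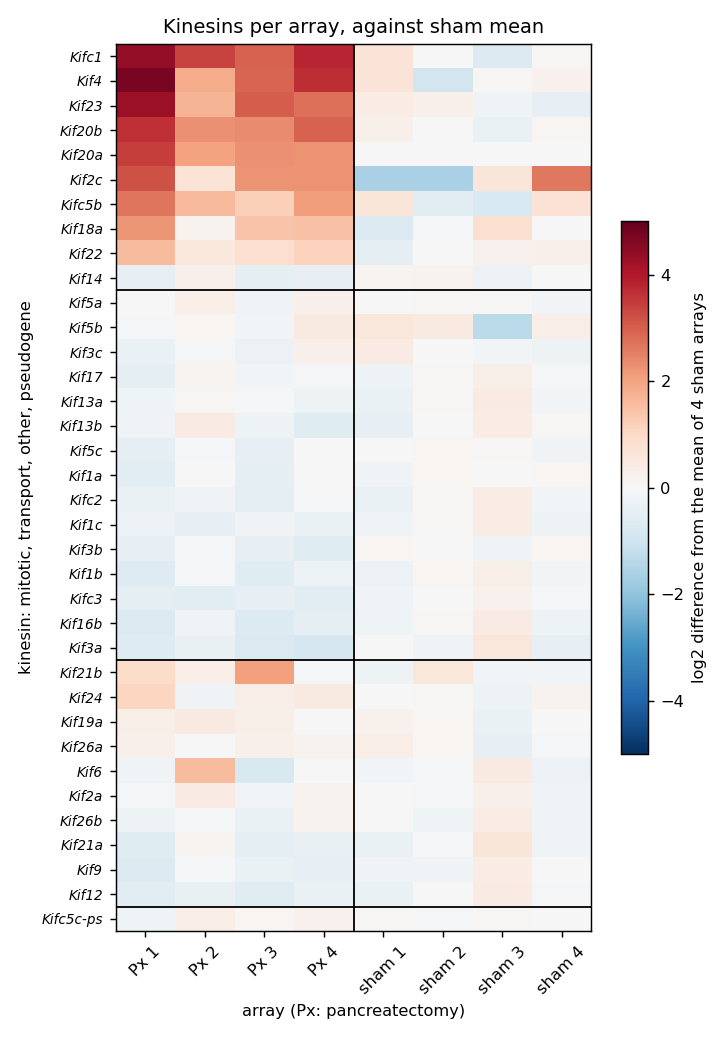
Log2 difference of each measured kinesin from its mean over 4 sham arrays (colour scale), with 4 pancreatectomy arrays (Px) on the left and 4 sham arrays on the right, and rows grouped as mitotic, transport, other and pseudogene. Red marks the pancreatectomy side of the mitotic rows other than Kif14, deepest on array 1 and pale for Kif18a on array 2. Kif2c is also red on sham array 4. The transport rows stay pale apart from Kif5b on sham array 3.

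Without the 4 arrays that carried liver or B-cell transcripts, pancreatectomy array 2 stood against sham arrays 1 to 3, the lone array being assumed to vary like the others. None of the 30833 features passed in that fit, and 1649 had an unadjusted p under 0.05, 6 of the 10 mitotic kinesins among them. Kifc1 then had a change of 3.40, Kif20b 2.30, Kif20a 2.00 and Kif23 1.57, with adjusted p of 0.684 to 0.736, and the median of the mitotic kinesins was 1.73. Without pancreatectomy arrays 1 and 3, where fibroblast and most macrophage markers were high, Kif20a still passed (2.12, adjusted p = 0.0341). In that fit Kifc1 (3.60) and Kif20b (2.60) had an adjusted p of 0.0511 and Kif23 (2.23) one of 0.121. Leaving out each array in turn, Kifc1, Kif20b and Kif20a passed all 8 times. Kif23 passed only without pancreatectomy array 1 or 2, and had an adjusted p of 0.0879 to 0.125 in the other 6 fits.

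The lowest signal well above background was 5.19 on sham array 3, against 2.74 to 2.90 on the other sham arrays and 2.54 to 3.54 on pancreatectomy arrays. On sham array 3 the values of Kifc1, Kif20b, Kif23, Kif4, Kifc5b, Kif2c and Kif18a lay under that level. Without it the changes were 3.42 for Kifc1, 2.69 for Kif20b, 2.87 for Kif23 and 3.32 for Kif4. With the normexp background correction, Kifc1 alone passed (2.37), the change of Kif23 was 1.08 and the median of the mitotic kinesins was 1.02. Without scaling between arrays none of the 10 passed. In that fit 388 of the 30864 features had an unadjusted p under 0.05 in limma, 8 of the 10 among them.

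The promoters of the mitotic kinesins share short motifs known from genes expressed in G2 and mitosis. In that class, the cell cycle homology region (TTTGAA, or less often TTCGAA) is known to be bound by the MuvB complexes, and CCAAT boxes by NF-Y. RefSeq windows (build GRCm38.p6, 250 bases before to 50 after the annotated start) were found for 33 of the 43 genes, 37 windows in all. Both strands were searched. TTTGAA was found in 11 of 13 mitotic windows (84.6%) and in 1 of 12 transport windows (8.33%). It was found in 2 of 12 windows of the other kinesins and in 17.9% of all 32851 windows. The 11 include Kif14, which did not rise, and Kif20a had no window. TTCGAA was found in no mitotic or transport window, in 1 of 12 windows of the other kinesins (Kif24) and in 1.56% of all windows. Within 50 bases of the start, a distance chosen after the positions were seen, 9 of 13 mitotic windows held TTTGAA (69.2%), against 1 of 12 transport windows and 4.94% of all windows. CCAAT was found in 9 of 13 mitotic windows, in 4 of 12 transport windows, in 4 of 12 windows of the other kinesins and in 37.4% of all windows. The E2F motif, searched as TTCGCGC, also as TTGGCGC, also as TTCCCGC and also as TTGCCGC, was found in 2 of 13 mitotic windows (Kif15 and Kif18a), in 1 of 12 transport windows, in 2 of 12 windows of the other kinesins and in 9.57% of all windows. The windows of Kifc1 and Kifc5b are the same over 239 of 272 bases (87.9%) when shifted by 28 bases, so the 13 mitotic windows are not all independent. Nor are the 12 transport windows, since 2 of them belong to Kif1b, overlap and hold the same CCAAT matches. A match is a string of letters, and binding was not measured here.

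**Figure D4:**
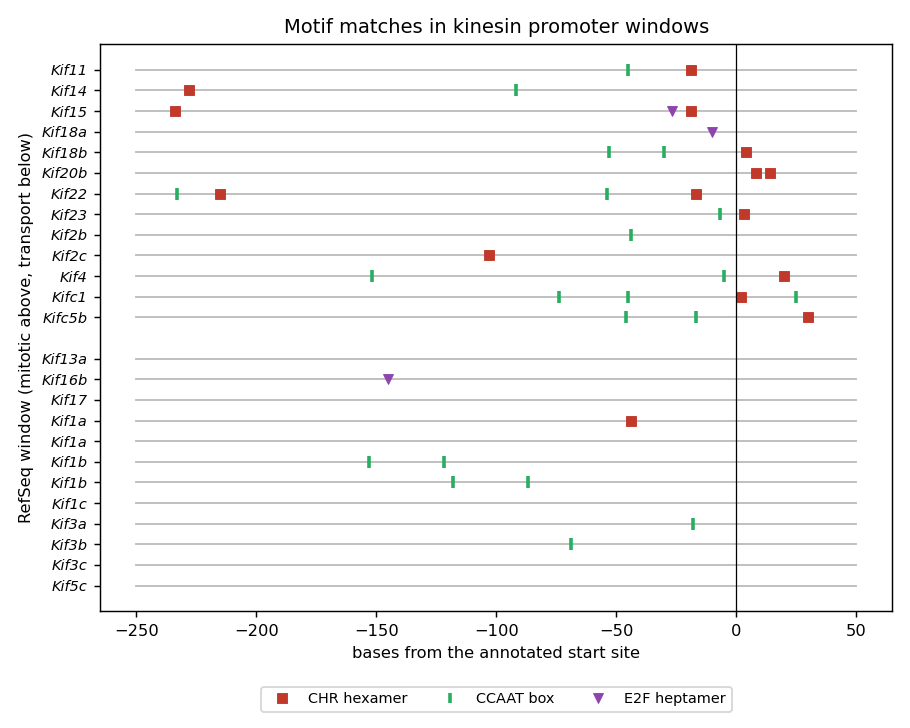
Positions of motif matches (x axis, bases from the annotated start site) in the promoter windows of mitotic kinesins (upper rows) and transport kinesins (lower rows). Squares are TTTGAA or TTCGAA, bars CCAAT and triangles the E2F heptamers, on either strand. Squares stand near the start site in 9 of 13 mitotic windows and in 1 of 12 transport windows.

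The windows of 5 mitotic kinesins that were higher after pancreatectomy are shown, 3 of them past the threshold, with that of the transport kinesin Kif5c, which holds none of the motifs, for comparison. Capitals mark TTTGAA and CCAAT, or TTCAAA and ATTGG where the match is on the opposite strand, and each line reads 5′ to 3′ along the gene's strand.
Kifc1 (chr17:33890584-33890883, minus strand): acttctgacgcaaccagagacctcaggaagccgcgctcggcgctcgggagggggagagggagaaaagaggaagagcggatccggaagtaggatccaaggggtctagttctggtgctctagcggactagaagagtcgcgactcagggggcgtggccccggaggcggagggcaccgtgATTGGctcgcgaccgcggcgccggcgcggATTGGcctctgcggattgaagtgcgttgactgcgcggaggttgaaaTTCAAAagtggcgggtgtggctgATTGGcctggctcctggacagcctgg
Kif20b (chr19:34922108-34922407, plus strand): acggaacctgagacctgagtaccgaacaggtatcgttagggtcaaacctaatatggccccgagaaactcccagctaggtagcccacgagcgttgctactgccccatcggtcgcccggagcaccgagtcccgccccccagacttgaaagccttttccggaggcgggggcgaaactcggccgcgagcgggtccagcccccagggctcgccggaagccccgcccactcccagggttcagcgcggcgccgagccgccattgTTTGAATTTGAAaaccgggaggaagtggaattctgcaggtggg
Kif23 (chr9:61946750-61947049, minus strand): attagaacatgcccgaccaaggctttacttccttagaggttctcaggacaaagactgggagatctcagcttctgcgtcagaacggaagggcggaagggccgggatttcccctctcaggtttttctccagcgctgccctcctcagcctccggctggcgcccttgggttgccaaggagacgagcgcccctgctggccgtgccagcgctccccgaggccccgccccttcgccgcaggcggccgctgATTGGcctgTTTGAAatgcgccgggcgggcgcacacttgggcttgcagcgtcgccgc
Kif4 (chrX:100625815-100626114, plus strand): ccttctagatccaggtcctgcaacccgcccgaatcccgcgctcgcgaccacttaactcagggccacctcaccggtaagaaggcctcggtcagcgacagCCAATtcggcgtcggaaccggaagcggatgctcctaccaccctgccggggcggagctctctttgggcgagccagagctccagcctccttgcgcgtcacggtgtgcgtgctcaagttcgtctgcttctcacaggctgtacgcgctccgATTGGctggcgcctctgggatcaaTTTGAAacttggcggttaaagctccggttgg
Kif11 (chr19:37376132-37376431, plus strand): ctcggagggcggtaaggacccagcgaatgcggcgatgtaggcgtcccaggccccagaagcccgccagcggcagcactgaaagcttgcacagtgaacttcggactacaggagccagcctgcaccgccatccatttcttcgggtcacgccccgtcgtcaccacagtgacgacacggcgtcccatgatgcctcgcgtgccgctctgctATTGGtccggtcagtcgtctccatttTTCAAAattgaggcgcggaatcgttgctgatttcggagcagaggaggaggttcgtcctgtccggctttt
Kif5c (chr2:49619036-49619335, plus strand): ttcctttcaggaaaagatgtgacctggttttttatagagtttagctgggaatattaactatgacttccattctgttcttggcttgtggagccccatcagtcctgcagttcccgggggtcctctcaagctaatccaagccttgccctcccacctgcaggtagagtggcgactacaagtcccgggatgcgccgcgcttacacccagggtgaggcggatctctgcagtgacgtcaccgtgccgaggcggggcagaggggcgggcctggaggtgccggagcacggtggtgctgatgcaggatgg
In Kifc1, Kif20b, Kif23 and Kif4 the TTTGAA match lies downstream of the annotated start, and in Kif11 it begins 19 bases upstream. Kif20b holds TTTGAA back to back, and Kifc1 holds 3 CCAAT matches, all on the opposite strand.

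The proteins that work with the mitotic kinesins were read from a list of 17 genes, 16 of them measured (Aurkb had no kept probe). Of the 16, 11 rose and none fell, against 0.544% higher and 0.0842% lower among all features, with a median change of 2.78. With slide row as a block 7 rose, without pancreatectomy arrays 1 and 3 the count was 3, and without the 4 arrays with liver or B-cell transcripts it was 0. Cenpe, the kinetochore motor that carries chromosomes to the spindle equator, gave 10.56, 8.60, 9.31 and 8.98 on pancreatectomy arrays, against 5.96, 5.91, 6.06 and 6.07 on sham arrays. No overlap was seen, with pancreatectomy array 1 again the highest, and the change was 3.36 ± 0.37 (SE, adjusted p = 0.0081). Prc1, which bundles the central spindle and guides Kif4 there, rose by 2.21. The passenger complex genes Birc5 and Cdca8 rose by 3.98 and 3.17, and Plk1, a kinase that docks on Kif20a, by 3.72. Ect2 and Anln, which act in furrow formation, rose by 2.80 and 2.76. Aurka, the spindle pole kinase, rose by 2.13, Nusap1, a spindle microtubule bundler, by 3.85, and Ccnb1 and Cdk1, the mitotic cyclin and its kinase, by 3.73 and 4.43. The other kept probes of Cdk1 read 3.67 and -0.26. Those of Ccnb1 read 2.47 and 1.92 and did not pass (adjusted p = 0.0929 and 0.128 over all probes). Racgap1, the partner of Kif23 in centralspindlin, was higher by 1.14 ± 0.24 (SE) and did not pass (adjusted p = 0.109), nor did Incenp at 1.42 (adjusted p = 0.0613). The brightest probe of Tpx2, which brings Kif15 and Kif11 to the spindle, read -0.23, while its other kept probe read 3.79 (adjusted p = 0.0101 over all probes). Ckap5, a microtubule polymerase, read -0.04.

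The track itself was described by 16 tubulin genes, all measured. Tuba1c, an alpha-tubulin, rose by 1.41 ± 0.25 (SE, adjusted p = 0.0490), and the other 15 did not pass. It gave 14.06, 13.16, 13.45 and 13.46 on pancreatectomy arrays, against 12.11, 11.74, 12.61 and 12.02 on sham arrays, with no overlap. With slide row as a block no tubulin passed, and when arrays were left out in turn 1 passed without sham array 3 and none without any of the other 7. At an unadjusted p under 0.05, 8 tubulins were higher and none lower, against 4.22% higher and 6.28% lower among all features. The median change of the 16 was 0.42, against -0.04 over all features. The largest changes that did not pass were 1.33 for Tubb6, 1.199 for Tubb5, 0.84 for Tubb4a and 0.70 for Tuba1b.

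None of the 15 transport kinesins passed in either direction (lowest adjusted p = 0.256). Their changes ran from -0.64 to 0.11, none over 1.56-fold, and 13 of the 15 were negative, as were 54.9% of all features. At an unadjusted p under 0.05, 4 were lower (Kif3a, Kif16b, Kifc3 and Kif3b) and none higher, against 6.28% lower among all features. Their 95% intervals lay between -1.16 and 1.01. Their mean difference from the sham mean was -0.38, -0.07, -0.36 and -0.22 on pancreatectomy arrays 1 to 4, against -0.08, 0.07, 0.11 and -0.10 on sham arrays 1 to 4.

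The 5 transport kinesins whose probes gave the highest mean signal were Kif1a, Kif1b, Kif5c, Kif3c and Kif3a. Signals of different probes are not set against each other. Kif1a, which carries dense-core and synaptic vesicles, gave 12.82, 13.37, 12.92 and 13.32 on pancreatectomy arrays, against 13.17, 13.46, 13.34 and 13.46 on sham arrays. The groups overlapped and the change was -0.25 ± 0.17 (SE, adjusted p = 0.647). Kif1b, which carries mitochondria and vesicle precursors, gave 12.39, 12.93, 12.43 and 12.75 on pancreatectomy arrays, against 12.74, 13.14, 13.32 and 12.90 on sham arrays. Pancreatectomy arrays 2 and 4 lay among the sham arrays, and the change was -0.40 ± 0.19 (SE, adjusted p = 0.513).

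Kif5c is a conventional kinesin heavy chain. It gave 11.45, 11.78, 11.48 and 11.85 on pancreatectomy arrays, against 11.92, 11.97, 11.93 and 11.73 on sham arrays, with overlap (change -0.25 ± 0.15 SE, adjusted p = 0.608). The heterotrimeric motor of Kif3a, Kif3b and Kifap3, with Kif3c as an alternative chain, builds primary cilia. Kif3a gave 10.06, 10.33, 9.99 and 9.84 on pancreatectomy arrays, against 10.72, 10.52, 11.28 and 10.27 on sham arrays. Only pancreatectomy array 2 overlapped, with sham array 4, and the change was -0.64 ± 0.23 (SE, adjusted p = 0.385), while its other kept probe read -0.11. Kif3c gave 10.33, 10.58, 10.36 and 10.89 on pancreatectomy arrays, against 11.04, 10.66, 10.51 and 10.38 on sham arrays. The groups overlapped widely, with a change of -0.11 ± 0.20 (SE, adjusted p = 0.866).

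Kifc3, a minus-end motor of apical transport and cell junctions, was the only transport kinesin whose groups did not overlap, a pattern seen downward in 5.29% of all features. It gave 8.78, 8.69, 8.87 and 8.73 on pancreatectomy arrays, against 9.104, 9.30, 9.49 and 9.17 on sham arrays. The change was -0.50 ± 0.14 (SE, adjusted p = 0.256). The other chains of conventional kinesin, Kif5a and Kif5b, read 0.11 and 0.08. Kif5b, the chain tied to insulin granule movement, rested on sham array 3 (8.35, against 10.03 to 10.28 on the other sham arrays), and without that array its change was -0.37. Kif5a had another kept probe at -0.25, and Kif1c, at -0.30, a probe at 0.01. The early endosome motor Kif16b read -0.51, the second chain of the ciliary motor, Kif3b, -0.39, and Kifc2, a minus-end motor of neurons, -0.27. The endosome motors Kif13b and Kif13a read -0.16 and -0.13, and Kif17, which carries receptor vesicles in dendrites, -0.13, with other kept probes at -0.93 and -0.06.

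Adaptors that join kinesin to its cargo were read from a list of 20 genes, all measured. None passed, the lowest adjusted p was 0.412, and 2 were lower at an unadjusted p under 0.05, as were 6.28% of all features. The median change was -0.18, and 16 of the 20 values were negative, against 54.9% of all features. The largest were -0.58 for each of the light chains Klc2 and Klc4, and -0.34 for each of the JIP scaffolds Mapk8ip1 and Mapk8ip2. The opposite motor, cytoplasmic dynein with dynactin, was read from 24 measured genes of 26. None passed, 2 were lower at an unadjusted p under 0.05 (6.28% of all features were), and the median change was -0.09. Dynlrb2, a light chain, gave 8.56, 8.92, 8.89 and 8.60 on pancreatectomy arrays, against 9.63, 9.82, 9.46 and 9.52 on sham arrays. The groups did not overlap, and the change of -0.87 ± 0.15 (SE) had an adjusted p of 0.0544. The next largest were 0.40 for Nde1, 0.39 for Dynll1 and -0.38 for Dynll2.

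None of the 10 measured kinesins with other roles passed (lowest adjusted p = 0.431), and 1 was lower at an unadjusted p under 0.05, against 6.28% of all features. Their median change was 0.13 and 6 of the 10 values were positive. Kif12, known in mouse beta cells for a role in antioxidant defence, read -0.45 ± 0.18 (SE, adjusted p = 0.431). It gave 12.98, 13.13, 12.88 and 13.18 on pancreatectomy arrays, against 13.17, 13.48, 13.89 and 13.42 on sham arrays, and only pancreatectomy array 4 reached the lowest sham value. Kif21b, a motor of neurons and T cells, read 0.80 ± 0.43 (SE, adjusted p = 0.563). It gave 9.02, 8.44, 10.18 and 8.02 on pancreatectomy arrays, against 7.86, 8.66, 7.95 and 7.95 on sham arrays. Its highest value was on pancreatectomy array 3, the array with Ms4a1, where the summed signal of 8 lymphocyte markers was 29175, against 15473 to 17095 on the other pancreatectomy arrays and 15313 to 25877 on sham arrays. The part of lymphocytes in this value was not tested.

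Of the remaining kinesins with other roles, Kif9, a motor of motile cilia, read -0.37, with its 3 other kept probes between -0.46 and -0.33, Kif6 read 0.16, and Kif19a, which sets cilium length, 0.26. Kif24, which acts at the base of the cilium, read 0.43. Of 7 ciliated-cell markers 4 were well above background on all arrays and Dnah5 on none, and their summed signal was 1452 to 2044 on pancreatectomy arrays and 1519 to 1846 on sham arrays. The microtubule-shortening Kif2a read 0.10, with other probes at 0.21 and 0.14, and Kif21a, which restrains microtubule growth at the cell cortex, read -0.31. Kif26a, known from enteric nerve development, read 0.17, with another kept probe at 1.02 (adjusted p = 0.201 over all probes). Kif26b, known from kidney development, read -0.13, with another probe at 0.96. The pseudogene Kifc5c-ps read 0.11. Among genes with no kept probe, Kif7, a regulator of Hedgehog signalling in the cilium, was well above background on 2 pancreatectomy arrays and 1 sham array, Kif27 on 1 pancreatectomy array and no sham array, and Kif4b on 1 of each.

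The same probes in the authors' deposited table, which holds group averages, gave pancreatectomy minus sham differences within 0.0057 of those above for all 36 genes.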

How the data were processed

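Total RNA of isolated mouse islets was read on 8 one-colour arrays, 4 per group, on 1 slide. Each spot's intensity was deposited as Feature Extraction output (10.7.3.1 per the file headers, 9.1 per the submitters' processing notes). Its processed signal is background-subtracted, with no scaling between arrays, per the file headers. A table of the whole series, deposited by the authors, holds log2 group averages from GeneSpring GX 12.5 after shifting to the 75th percentile (per the file headers), and served for symbols and as a check of differences.

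Here, outlier spots (113 to 228 per array) were left out and none was saturated. The log2 processed signal of each array was shifted by its 75th percentile, and the mean percentile was added back. Of 55681 probes, 37491 were kept (well above background on at least 4 arrays, with at least 3 values per group). A gene is its brightest kept probe. Symbols were updated through Entrez IDs with a RefSeq table of GRCm38. This gave 30864 features, 18641 with a symbol. The array design gives probe positions on mm9 (per the file headers). Exons and UTRs on that build were not used here.

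The comparison used limma (version 3.58.1, R version 4.3.3), with Benjamini-Hochberg adjustment over all features and a threshold of 0.05. Changes are pancreatectomy minus sham, with the moderated standard error (median 0.22 over all features). The number of arrays limits the precision. The fit was tested on simulated data. Alternatives were scaling, background correction, the filter on dim probes, the choice of probe, slide row as a block and within rows, an intensity trend, array weights and arrays left out. The normexp alternative used median spot signals, since the files hold no mean signal. Replicate numbers name arrays only, and arrays that share a number were not taken as pairs. All measured kinesins are named. Values on every array are given for those past the threshold, the 4 with the largest change that did not pass, the 5 transport kinesins with the highest mean signal, and several others chosen after their values were seen. Of the other lists, members past the threshold and at most 4 others with the largest change are named. The members, their classes and the lists were chosen with earlier results of these data known. Protein sequences were not used here.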

Additional observations from a re-analysis of the deposited data

Results flagged for a closer look

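Of 72 sets of 4 arrays (36 genes in 2 groups), 3 held an array that stood apart from the other 3 by more than Dixon's critical value at the 95% level. Chance alone would mark about 1 set in 20. Kif14 read 5.88 on pancreatectomy array 2, against 5.17 to 5.20 on the other pancreatectomy arrays. Kif21b read 8.66 on sham array 2, against 7.86 to 7.95 on the other sham arrays. Kif5b read 8.35 on sham array 3, against 10.03 to 10.28 on the other sham arrays.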

How the results depend on the processing

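Of the mitotic kinesins, 4 rose, and 3 to 5 did when each array was left out in turn. The count was 3 with quantile scaling or slide row as the replicate block, 1 with normexp, 1 of the 2 genes left when all 8 arrays had to be well above background, 7 with array weights, 1 without pancreatectomy arrays 1 and 3, and 0 with no scaling, within slide row 1, within slide row 2 (2 arrays against 2, where no feature passed) and without the 4 arrays with liver or B-cell transcripts. At an unadjusted p under 0.05, limma gave 2021 of the 30864 features within row 1, with 8 of the 10 mitotic kinesins among them. Within row 2 it gave 896 features, with 7 of the 10 among them. The median change of the mitotic kinesins was 1.02 with normexp, 1.76 under the strictest filter and 1.73 without the 4 arrays. That of the transport kinesins was negative in every alternative, from -0.37 to -0.10, the last without pancreatectomy arrays 1 and 3. Kif23 did not pass with quantile scaling, no filter on dim probes or the row block, and Kif4, Kif18a and Kif22 passed with array weights, Kif4 also with the intensity trend. No transport or other kinesin and no adaptor passed in any alternative.

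Over all features, rises and falls numbered 122 and 36 with quantile scaling, 130 and 48 with median scaling, 18 and 0 with no scaling, 54 and 6 with normexp, 68 and 4 with no filter, 93 and 33 under the strictest filter, 111 and 11 with the row block, 407 and 362 with array weights, 14 and 1 without pancreatectomy arrays 1 and 3, and 0 and 0 within either row and without the 4 arrays. With arrays left out in turn, rises ran from 56 to 165 and falls from 3 to 32. Partner rises were 3 with no scaling, 7 with normexp, no filter or the row block, 0 within either row and without the 4 arrays, 3 without pancreatectomy arrays 1 and 3, and 6 to 11 with arrays left out in turn. Tubulin rises were 0 with quantile, median or no scaling, normexp, no filter, mean of probes, the row block, either row, the 4 arrays left out and pancreatectomy arrays 1 and 3 left out, 2 under the strictest filter and with the intensity trend, 5 with array weights, and 0 to 1 with arrays left out in turn. Dynein list rises were 1 with array weights, and falls were 1 with median scaling, the strictest filter, the intensity trend and array weights.

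Signs changed only for members that did not pass. Without the 4 arrays, Kif13b read 0.43, Kif14 0.28, Kif17 0.0967, Kif1a 0.0496, Kif21a 0.0801 and Kif24 -0.0969. Without pancreatectomy arrays 1 and 3, Kif17 read 0.0312, Kif26b 0.0358 and Kif3c 0.0851. Within row 1, Kif13a read 0.0364, Kif13b 0.33, Kif26a -0.0885 and Kif5b -0.50. Within row 2, Kif2a read -0.0122, Kif3c 0.18 and Kif6 -0.50. With median scaling, which moved the median of all features to -0.16, Kif2a read -0.0261, Kif5a -0.0140, Kif5b -0.0405 and Kifc5c-ps -0.0167. With the mean of probes, Kif26b read 0.42 and Kif5a -0.0698. With array weights, Kif5b read -0.35 and Kif6 -0.0173. With arrays left out in turn, values ran from -0.24 to 0.00143 for Kif13a (positive without sham array 3), -0.23 to 0.0229 for Kif3c (positive without sham array 1), -0.00191 to 0.18 for Kif2a and -0.32 to 0.46 for Kif6 (both negative without pancreatectomy array 2), and -0.37 to 0.28 for Kif5b, which read -0.0408 without pancreatectomy array 4 and -0.37 without sham array 3. The causes were not tested. The number of arrays limits every value, and for Kif23, Kif4, Kif2c and the genes with no kept probe, so does signal near background on sham arrays.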
